A study of Mus musculus with 6 samples.

Results

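The genes described here are 5 markers of Kupffer cells, Clec4f, Cd5l, Marco, Vsig4 and Timd4, and 5 genes of macrophages in general, Adgre1, Csf1r, Cd68, Cd163 and Lyz2. They were chosen by name, with earlier results of these data known, and 14 of the 55681 different probes of the array measured them. The comparison was between 3 normal livers and 3 macroscopic liver tumors having a Ha-ras mutation, all from male C3H/HeN mice aged 74 to 75 weeks. The animals were F2 offspring of a control group kept on a standard diet and tap water, and the C3H strain develops liver tumors spontaneously. Each RNA was hybridised, with Cy3 as its label, to 1 SurePrint G3 Mouse GE array. The labels do not say whether the tissues came from separate animals, so p-values measure the spread between these samples.

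An expression value is the background subtracted signal divided by the 75th percentile of the array, and a log2 fold change is that of the tumors over the normal livers. The share of spots well above background was 44.7% to 48.9% per array, with no saturated spot. The 3 normal livers shared 1 scan, with a median local background of 42 to 45, and the 3 tumors another, with 22 to 23. An effect of the scan or slide therefore cannot be told apart from that of the tissue. Of all 18567 genes tested, limma called 21.0% lower and 13.1% higher in the tumors at an adjusted p under 0.05, with a median log2 fold change of -0.13. Scaling by spike-in controls moved all probes up by a median of 0.21 on the log2 scale, and 35.6% of the called probes were then lower in the tumors, against 62.2% in the scaling used here.

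Kupffer cells are the resident macrophages of the liver. They line the sinusoids, take up particles, bacteria and worn-out red cells from portal blood, and renew themselves largely from within the organ. They depend on signalling through the receptor Csf1r, whose ligands are Csf1 and Il34, and on signals from endothelial, stellate and liver parenchymal cells around them. When they are lost, blood monocytes can enter the niche and acquire Kupffer genes stepwise, with Timd4 appearing late, whereas genes such as Adgre1 and Lyz2 are also found in monocyte-derived macrophages. In whole tissue, fewer cells of a type and less RNA per cell cannot be told apart.

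The promoters of the members that fell, other than Csf1r, are shown because genes of both groups moved in 1 direction. The bases before the annotated start were taken from RefSeq, build GRCm38.p6, for Clec4f (chr6:83656117-83656366, minus strand), Vsig4 (chrX:96293439-96293688, minus strand), Cd5l (chr3:87357631-87357880, plus strand), Timd4 (chr11:46810549-46810785, plus strand) and Cd68 (chr11:69666171-69666420, minus strand). Capitals mark matches, on either strand, to the core site of the myeloid factor PU.1 (GAGGAA), the letters of a Maf site (TGCTGA) and those of a nuclear receptor site (AGGTCA).
Clec4f: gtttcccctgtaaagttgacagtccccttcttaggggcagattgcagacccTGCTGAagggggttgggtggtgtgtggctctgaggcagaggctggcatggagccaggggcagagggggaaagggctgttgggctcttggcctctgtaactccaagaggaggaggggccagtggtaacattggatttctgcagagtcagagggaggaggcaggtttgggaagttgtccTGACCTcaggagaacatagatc
Vsig4: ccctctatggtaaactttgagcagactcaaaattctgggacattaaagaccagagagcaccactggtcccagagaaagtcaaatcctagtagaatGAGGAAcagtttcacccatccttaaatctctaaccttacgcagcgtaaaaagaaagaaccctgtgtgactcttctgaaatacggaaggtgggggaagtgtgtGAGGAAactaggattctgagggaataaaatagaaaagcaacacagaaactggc
Cd5l: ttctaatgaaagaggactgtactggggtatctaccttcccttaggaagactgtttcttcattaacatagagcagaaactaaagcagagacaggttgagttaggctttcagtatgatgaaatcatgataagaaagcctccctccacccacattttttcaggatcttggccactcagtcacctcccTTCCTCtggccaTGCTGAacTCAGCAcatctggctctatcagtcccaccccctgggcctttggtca
Timd4: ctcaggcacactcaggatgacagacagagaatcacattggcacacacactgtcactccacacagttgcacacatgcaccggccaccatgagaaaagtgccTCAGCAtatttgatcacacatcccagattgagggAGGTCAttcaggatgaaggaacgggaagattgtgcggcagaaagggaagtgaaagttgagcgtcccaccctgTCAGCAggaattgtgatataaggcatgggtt
Cd68: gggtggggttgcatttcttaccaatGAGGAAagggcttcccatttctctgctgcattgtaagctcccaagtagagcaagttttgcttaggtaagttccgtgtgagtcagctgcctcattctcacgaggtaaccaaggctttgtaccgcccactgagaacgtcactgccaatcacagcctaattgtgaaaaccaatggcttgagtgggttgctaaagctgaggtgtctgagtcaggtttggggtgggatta
The PU.1 letters occurred 2 times before Vsig4 and 1 time each before Cd5l and Cd68, and neither Clec4f nor Timd4 held them in this window. They were present in 23.3% of 32851 promoter windows of up to 250 bases. The Maf letters, in 16.1% of all windows, occurred 1 time before Clec4f and 2 times each before Timd4 and Cd5l. The nuclear receptor letters, in 14.0%, occurred 1 time each before Clec4f and Timd4. The windows of Marco, Lyz2 and Cd163, not shown, held 1 PU.1 match before Marco, 1 Maf match before Lyz2 and no other match. A match is a description of letters and not a binding site, and the windows of Adgre1 and Csf1r were not analysed here.

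Kupffer markers were lower in the tumors, and of the 5 genes 4 passed the test, against 21.0% of all genes. The falls that passed lay between 1.08 and 1.84 on the log2 scale, and these 4 genes had separate groups, as did 33.5% of all genes tested in the lower direction. The median log2 fold change of the 5 genes was -1.27. Every probe was well above background on all 6 arrays, so none of them was in the test through 1 group alone.

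Clec4f encodes a C-type lectin that in mice is a defining marker of Kupffer cells. Its expression value was 18.3, 12.3 and 19.95 in normal livers 1 to 3 and 2.86, 4.90 and 6.94 in tumors 1 to 3. The highest tumor lay well below the lowest normal liver. Clec4f fell by 1.84 on the log2 scale (standard error 0.35, limma's adjusted p = 0.0102), or 3.59-fold.

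Timd4 encodes a receptor for phosphatidylserine on dying cells and marks long-resident Kupffer cells. It read 0.777, 0.547 and 1.25 in the normal livers and 0.301, 0.239 and 0.239 in the tumors. The tumors were close to each other, with a 1.26-fold spread, while the normal livers differed 2.28-fold. Timd4 fell by 1.65 on the log2 scale (standard error 0.30, limma's adjusted p = 0.00886). With normexp background correction the log2 fold change was -0.97 and still passed (limma's adjusted p = 0.00417). The call was lost with the unpaired and paired t-test (adjusted p = 0.115 and 0.232).

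Vsig4 encodes a complement receptor that binds C3 fragments on circulating particles. Its values were 20.5, 16.8 and 22.3 in the normal livers and 9.59, 6.85 and 8.29 in the tumors. The normal livers differed 1.33-fold and the tumors 1.40-fold, with a wide gap between the groups. The difference for Vsig4 was -1.27 on the log2 scale (standard error 0.17, limma's adjusted p = 0.00368).

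Cd5l encodes a secreted scavenger protein of tissue macrophages that circulates bound to IgM. It read 38.03, 27.5 and 56.4 in the normal livers and 26.0, 14.3 and 16.8 in the tumors. Tumor 1 came close to normal liver 2, without overlap. Cd5l fell by 1.08 on the log2 scale (standard error 0.32, limma's adjusted p = 0.0441). This call was lost in 9 of 18 alternatives, among them quantile normalization (adjusted p = 0.0810), spike-in scaling (0.0602) and the removal of normal liver 1 (0.102), normal liver 3 (0.106), tumor 2 (0.122) or tumor 3 (0.112).

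Marco encodes a scavenger receptor for bacteria and particles. It was the Kupffer marker that did not pass the test. Its values were 6.71, 4.68 and 20.4 in the normal livers and 14.4, 2.17 and 1.56 in the tumors. Tumor 1 lay above normal livers 1 and 2, so that the groups overlapped, and the tumors differed 9.20-fold among themselves. The log2 fold change of -1.24 had a 95% interval from -3.48 to 0.997 (limma's adjusted p = 0.346). Without tumor 1 it was -2.23 (limma's adjusted p = 0.0497).

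**Figure D1:**
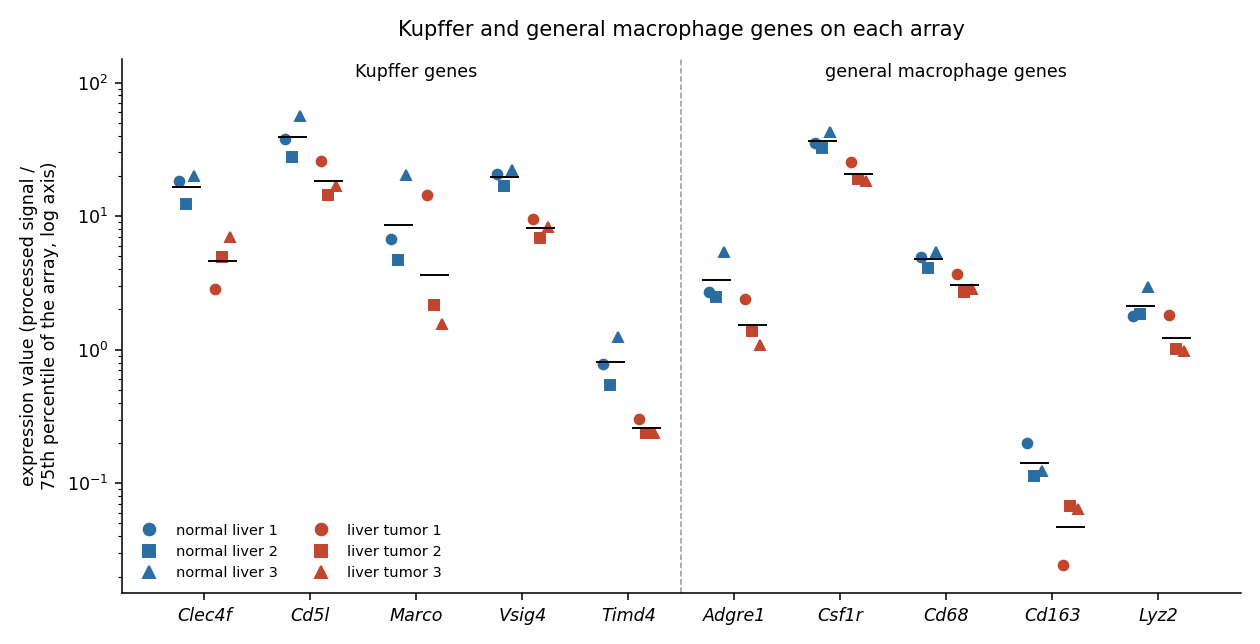
Expression value of each gene (vertical log axis, processed signal over the 75th percentile of the array) on the 3 arrays of normal liver (blue) and the 3 of liver tumor (red), with a bar at the geometric mean. Clec4f, Vsig4 and Timd4 show separate groups, while Marco in tumor 1, at 14.4, lies within the normal range, and levels can be read across arrays for a gene but not between genes.

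The general macrophage genes with a tested probe also had lower mean values in the tumors. Of these 4 genes 2 passed the test, against 21.0% of all genes, with a median log2 fold change of -0.81. All 8 of their tested probes read lower in the tumors, and 6 passed, while over all probes 20.6% did so in this direction. The count of 2 genes changed with single arrays and with the scaling. It was 0 with spike-in scaling and without tumor 2, where 2 genes had an unadjusted limma p under 0.05 in each case, 1 without normal liver 1, normal liver 3 or tumor 3, and 4 without tumor 1.

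Csf1r, the receptor for Csf1 and Il34 on which macrophage survival depends, was measured by 3 probes, and each passed. The brightest probe read 35.0, 32.4 and 42.3 in the normal livers and 25.5, 18.9 and 18.4 in the tumors. The groups did not overlap. On the log2 scale it fell by 0.81 (standard error 0.18, limma's adjusted p = 0.0156), and the log2 fold changes of the other probes were -0.96 and -0.75. The call of Csf1r was lost in 5 of 18 alternatives. These were spike-in scaling (limma's adjusted p = 0.0854), no filter on dim probes (0.05865) and the removal of tumor 2 (0.0515). The others were the unpaired and paired t-test (adjusted p = 0.05785 and 0.189).

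Cd68 encodes a lysosomal glycoprotein of phagocytes. Its brighter probe read 4.94, 4.07 and 5.43 in the normal livers and 3.67, 2.72 and 2.87 in the tumors. Cd68 fell by 0.64 on the log2 scale (standard error 0.17, limma's adjusted p = 0.0302), and the second probe gave -0.63. The call of Cd68 was lost without normal liver 1, normal liver 3, tumor 2 or tumor 3, with adjusted p from 0.0812 to 0.0914.

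Adgre1 encodes the classical surface antigen of mouse macrophages, and its probes lay on either side of the threshold. The brighter probe read 2.72, 2.47 and 5.42 in the normal livers and 2.39, 1.37 and 1.08 in the tumors, and it did not pass (log2 fold change -1.12, standard error 0.40, limma's adjusted p = 0.0717). The other probe did, with a nearly equal log2 fold change of -1.15 (standard error 0.34, adjusted p = 0.0423). On the brighter probe tumor 1 was just below normal liver 2, and without tumor 1 that probe passed as well, at -1.45 (adjusted p = 0.0371).

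Lyz2 encodes the lysozyme of myeloid cells, neutrophils included. It read 1.79, 1.84 and 2.97 in the normal livers and 1.81, 1.02 and 0.978 in the tumors. Tumor 1 lay within the normal range. The log2 fold change of -0.81 did not pass (95% interval from -1.55 to -0.08, limma's adjusted p = 0.0855), but without tumor 1 it was -1.10 (adjusted p = 0.0273). Lyz1 is a near-identical neighbor whose transcripts the Lyz2 probe may also bind, so the value is uncertain, and the Lyz1 probe gave -0.98 (adjusted p = 0.0502).

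Cd163, the scavenger receptor for hemoglobin bound to haptoglobin, was too dim to be tested. Its probe read 0.199, 0.114 and 0.123 in the normal livers and 0.0243, 0.0679 and 0.0646 in the tumors. It was well above background in 1 normal liver and in no tumor, so no fold is given.

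**Figure D2:**
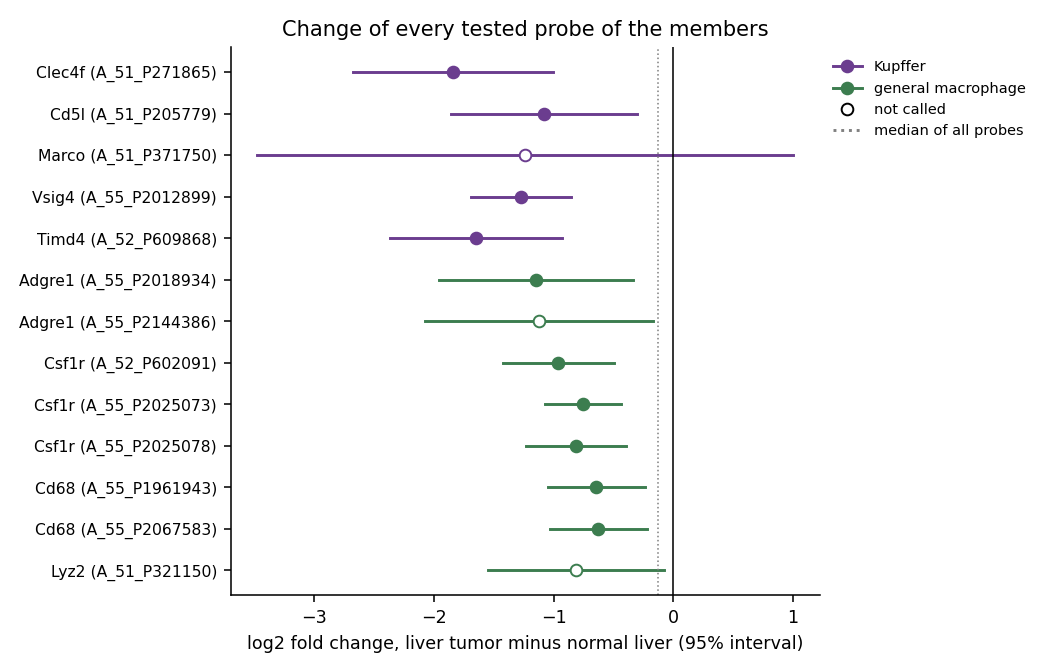
Log2 fold change of liver tumor over normal liver (horizontal axis) for the 13 tested probes of the Kupffer (purple) and general macrophage (green) genes, with the 95% interval of limma as a line; open points did not pass the adjusted threshold of 0.05. All 13 points lie below the median of all probes, the dotted line at -0.13, and the interval of Marco reaches 0.997.

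The arrays kept a common order within each tissue for most of the 9 tested genes. Normal liver 3 was the highest normal liver for 9 of them and normal liver 2 the lowest for 8. Among the tumors, tumor 1 was the highest for 8 genes. Clec4f was the exception, with its lowest value in tumor 1 and its highest in tumor 3. The share of all genes with the same order of arrays was not computed, so the order is not read as particular to these genes. Over the 6 arrays, the genes outside these lists whose log2 values followed the mean of the Kupffer genes most closely were Ercc8 (Pearson r = 0.997), Rrp12 (0.996), Cdc5l (0.995), Icos (0.994) and Sdc3 (0.994), of 16473 genes compared. The arrays share their tissue difference and scaling, so these values only describe likeness. Against the same mean, to which the Kupffer genes themselves contribute, r was 0.990 for Cd68 and 0.781 for Clec4f.

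The Kupffer genes were then set against the general genes within each array, where the scaling of the array cancels. The mean log2 value of the 5 Kupffer genes minus that of the 4 general genes was 0.81, 0.46 and 0.89 in the normal livers and 0.15, 0.05 and 0.25 in the tumors. Each tumor lay below each normal liver, and the difference of the means was -0.57, or a ratio 1.48-fold smaller in the tumors. Without Marco the values were 0.93, 0.59 and 0.77 against -0.23, 0.17 and 0.51, and the difference was -0.61. No other gene was left out in this way. Clec4f had the largest fall of the tested members (log2 fold change -1.84), and how far the separation of the groups rests on it was not tested. No p is given for this average because it is a score over the members, which were chosen with earlier results known.

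A single pair of genes was less clear. Clec4f minus Adgre1 was 2.75, 2.31 and 1.88 in the normal livers and 0.26, 1.84 and 2.68 in the tumors. The groups overlapped, with a difference of -0.72 (exact two-sided permutation p = 0.4, where 0.1 is the smallest that 3 against 3 samples allow). Without tumor 1 the difference was -0.05.

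**Figure D3:**
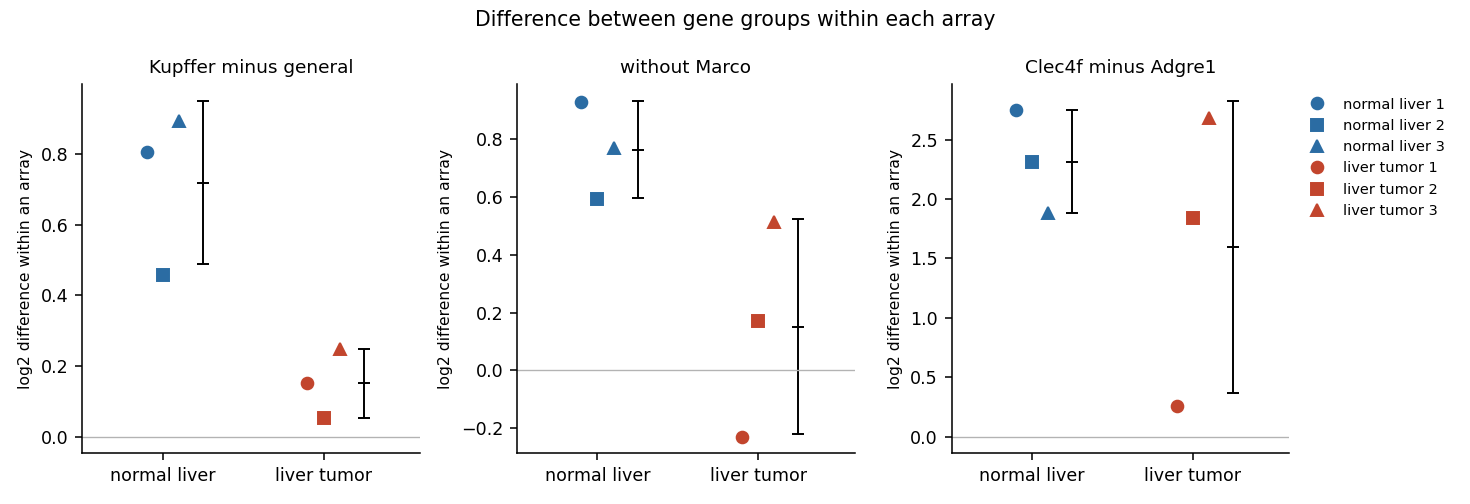
Difference of log2 values within each array (vertical axes) for normal liver (blue) and liver tumor (red), with mean and SD of the 3 arrays as black bars: Kupffer minus general genes, the same without Marco, and Clec4f minus Adgre1. In the first panel the tumors lie at 0.05 to 0.25 below the normal livers at 0.46 to 0.89, whereas in the third panel tumor 3, at 2.68, lies within the normal range.

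Among 7 other genes enriched in Kupffer cells, 4 fell and none rose, against 21.0% of all genes lower and 13.1% higher. Folr2, a folate receptor, fell by 1.61 on the log2 scale (limma's adjusted p = 0.0126), with 0.443 to 0.914 in the normal livers and 0.187 to 0.310 in the tumors. Cd207, the lectin langerin, fell by 1.51, Slc40a1, the iron exporter ferroportin, by 0.86 and Clec1b, a lectin receptor also found on platelets, by 0.80. C6, a complement component, had the largest difference of the list but the tumors read 1.62, 4.68 and 12.7, and it did not pass (log2 fold change -2.01, limma's adjusted p = 0.0653). Like that of Clec4f, its level was lowest in tumor 1 and highest in tumor 3. Cdh5, which endothelial cells also express, had a log2 fold change of 0.14 and Hmox1, heme oxygenase, of -0.38, and neither passed.

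Of 10 transcription regulators of Kupffer cells and macrophages, 8 had a tested probe, and 4 fell while 1 rose, against 21.0% of all genes lower and 13.1% higher. The 4 falls became 2 without normal liver 1, normal liver 3, tumor 2 or tumor 3, 2 with quantile normalization, and 1 with spike-in scaling or without the filter on dim probes. Among those that fell were Zeb2, by 0.82, Maf, by 0.59, and Nr1h3, the liver X receptor alpha, by 0.36 on the log2 scale (limma's adjusted p from 0.00873 to 0.0412). Nr1h3 is also expressed by hepatocytes. Id1 rose, from 0.423, 0.978 and 1.72 in the normal livers to 7.09, 3.32 and 5.40 in the tumors, by 2.49 on the log2 scale (standard error 0.53, adjusted p = 0.0151). Which cells of the tissue gave this rise was not tested. Id3, a relative of Id1 that is required for Kupffer cells, did not pass, at -0.59 (adjusted p = 0.229). Spic, a factor of iron-recycling macrophages, read 2.36 in tumor 1 against 0.835 and 0.926 in the others, and Irf8 had a log2 fold change of -0.37. Neither Spic (adjusted p = 0.815) nor Irf8 (0.0988) passed. Spi1, which encodes PU.1, and Tfec were too dim on every array to be tested.

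Of 7 ligands that form the macrophage niche, 2 of the 5 with a tested probe fell and none rose, against 21.0% of all genes lower and 13.1% higher. The 2 falls became 1, that of Gdf2, with quantile or spike-in scaling, without the filter, and without any 1 array other than normal liver 2. In some alternatives, among them quantile normalization and the removal of normal liver 2, 1 ligand was called higher. Gdf2, or BMP9, made by stellate cells, read 2.82 to 3.43 in the normal livers and 0.558 to 1.43 in the tumors. It fell by 1.63 on the log2 scale (standard error 0.35, limma's adjusted p = 0.0150). Csf1 fell by 0.64 (adjusted p = 0.0416), and 2 further tested probes of this gene gave -0.87 (adjusted p = 0.110) and -1.23 (adjusted p = 0.0223). Il34 was -0.63 (adjusted p = 0.0544), Tgfb1 0.40 (adjusted p = 0.0501) and the Notch ligand Dll4 0.54 (adjusted p = 0.111), none of which passed. Csf2 and Bmp10 were too dim on every array to be tested.

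Other genes shared by macrophages showed both directions, and of those named here all but Cd14, Itgam, Mpeg1 and Fcgr1 were chosen after their values were seen. Of 20 genes, 19 had a tested probe, and 8 fell and 2 rose, against 21.0% of all genes lower and 13.1% higher, with a median log2 fold change of -0.70. The 8 falls became 3 without normal liver 1 or normal liver 3, 2 without tumor 2 or tumor 3, 4 with quantile normalization, 2 without the filter and 1 with spike-in scaling. The genes of the complement component C1q were close to the general markers, with -0.82 for C1qa (limma's adjusted p = 0.0574, not passed), -0.86 for C1qb and -1.01 for C1qc, as were the protease gene Ctss, with -0.95, and the efferocytosis receptor gene Mertk, with -0.82. In all, 9 of the 19 tested genes did not pass, and several of them had smaller log2 fold changes. These were -0.05 for Ptprc, 0.01 for Msr1, -0.23 for Mrc1, -0.42 for Fcer1g and -0.46 for Axl (limma's adjusted p from 0.194 to 0.977). Fcgr1, a high-affinity IgG receptor, fell by 1.05. Itgam fell by 1.65 on its brightest probe, which read 11.1 to 15.7 in the normal livers, but the 2 other probes of this gene read at most 0.307 on any array and were not tested, so its value is uncertain. Cd14, the lipopolysaccharide co-receptor, rose from 0.810, 0.753 and 1.10 to 12.7, 8.35 and 9.93, or by 3.54 on the log2 scale (standard error 0.21). Mpeg1, a pore-forming protein of phagocytes, rose by 1.46 on each of its probes. Which cells of the tissue gave the rises of Cd14 and Mpeg1 was not tested.

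Of 11 genes of monocytes and lipid-associated macrophages, 7 were tested. For 4 of these, among them Cx3cr1, Trem2 and Itgax, all tumors but not all normal livers were well above background, so they were tested through the group where they are high, and no count or median of the list is given. The other 3 were measured on every array. Chil3, a chitinase-like protein of myeloid cells, rose by 1.38 and Cd9, which many cell types express, by 1.40 on the log2 scale, while Plac8 had a log2 fold change of 0.33 and did not pass (limma's adjusted p = 0.265). Cx3cr1, a chemokine receptor of patrolling monocytes, read 0.303, 0.247 and 0.0911 in the normal livers and 0.553, 0.606 and 0.487 in the tumors (log2 fold change 1.53, limma's adjusted p = 0.0383), and this call was lost without normal liver 2 or any 1 of the tumors. Trem2, at 1.68, and Itgax, at 1.36, did not pass (adjusted p = 0.184 and 0.0646). Ccr2, the receptor of recruited monocytes, was well above background in 2 tumors and in no normal liver and was not tested.

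**Figure D4:**
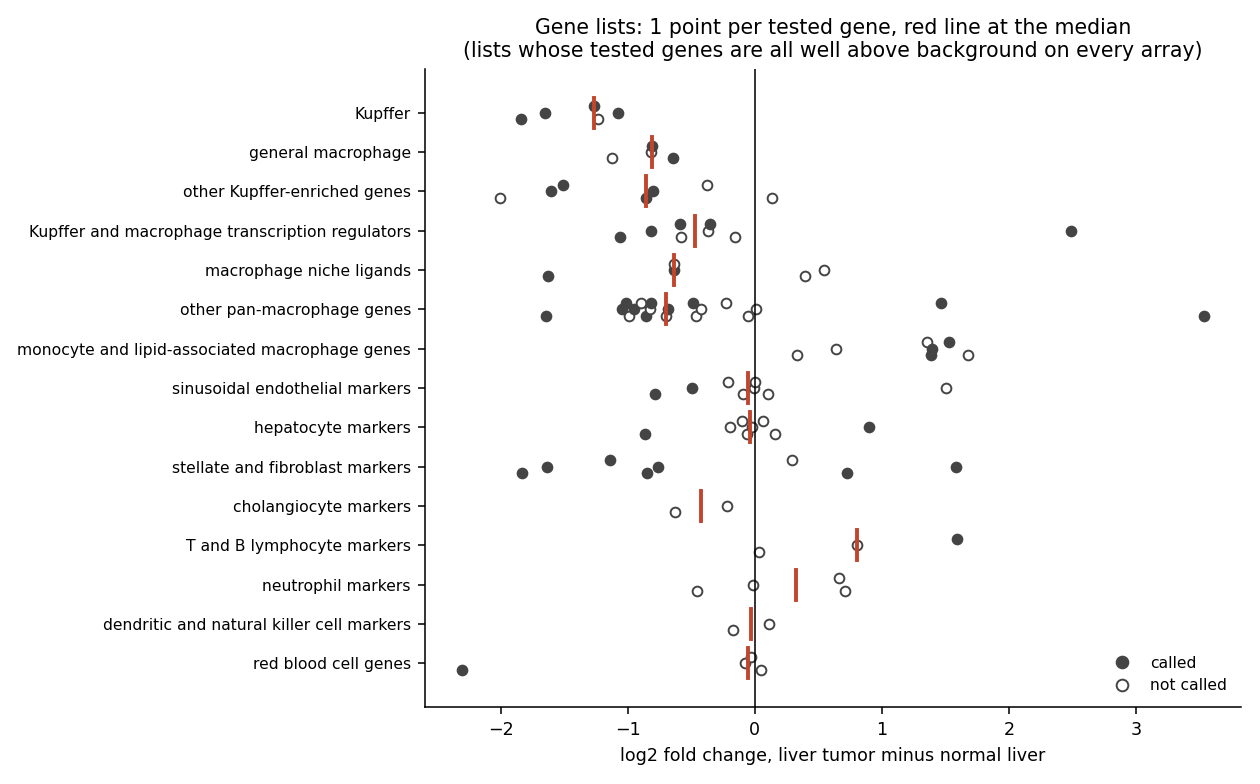
Log2 fold change of liver tumor over normal liver (horizontal axis) for each tested gene of the gene lists, with filled points for genes that passed the adjusted threshold of 0.05 and a red line at the median of each list whose tested genes were all well above background on every array. The medians are -1.27 for Kupffer genes, -0.81 for general macrophage genes and -0.04 for hepatocyte markers.

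Markers of other cells of the tissue are given beside these results, and their part in the falls was not tested. The mean log2 value of 8 hepatocyte markers was 9.57 to 9.60 in the normal livers and 9.52 to 9.59 in the tumors. That of 8 sinusoidal endothelial markers was 2.40 to 2.48 and 2.39 to 2.50. Of these 8 sinusoidal markers, 6 had a negative and 2 a positive log2 fold change. Lyve1 differed most, with 0.291 to 0.913 in the normal livers and 0.675 to 2.33 in the tumors. It was higher but did not pass (limma's adjusted p = 0.0913). The sinusoidal mean without Lyve1 was not computed, so this mean is not read as an unchanged level. Of the 8 hepatocyte markers 1 fell and 1 rose, Asgr1 by 0.86 and Apoa1 by 0.90, against 21.0% of all genes lower and 13.1% higher. Of the 8 sinusoidal markers 2 fell, Stab2 by 0.78 and Clec4g by 0.49, a share near the 21.0% of all genes. However, 2 other probes of Stab2 gave 0.02 and 0.09 and did not pass. The 2 falls became 1 without normal liver 2, normal liver 3 or any 1 of the tumors, and 0 with spike-in scaling. Of the stellate and fibroblast markers 5 of 8 fell, of which Des was tested through the normal livers alone, against 21.0% of all genes. Among the falls were Lrat by 1.83, Dcn by 1.64 and Rgs5 by 1.14. Another 2 rose, Col1a1 by 1.58 and Reln by 0.72, against 13.1% of all genes. Their mean log2 value was 0.27 to 0.55 in the normal livers and -0.23 to 0.13 in the tumors.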

How the data were processed

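Total RNA of 3 normal livers and 3 liver tumors was measured on 1-color arrays of 62976 spots. The authors deposited Feature Extraction files (version 10.7.3.1 per the file headers, 12.0.3.1 in the submitters' processing notes) with a background subtracted intensity for each spot. They also deposited a table of values without a stated scale, each within 1% of the ratio of that intensity to the 75th percentile of its array. Here the deposited intensity was divided by the 75th percentile over all spots and log2 transformed. Control spots and outlier spots were left out and spots of a probe averaged.

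A probe entered the test if all 3 arrays of a group had it well above background, which left 24901 probes. They were fitted with limma 3.58.1 (R 4.3.3) in a two-sided test, and p-values were adjusted over all of them by Benjamini-Hochberg, with a threshold of 0.05. A fall or rise is named only past that threshold. For a gene with several probes, the one of highest mean log2 value was used. Names were updated through RefSeq by accession for 27235 probes, by symbol for 3581 and by synonym for 565, and 24300 kept the name of the array design. The fit was tested on simulated data.

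The members and lists were chosen with earlier results of these data known. Named were all members, the tested transcription regulators and niche ligands, up to 4 called genes of each other list by size of change, and the 5 genes most like the Kupffer mean. Other genes were named after their values were seen, and 2 genes of the lists are counted but not reported here. Alternatives were other background corrections, normalizations, scalings, filters and tests, the replicate number as a block, and leaving out each array. The number of arrays limits the precision. Values of single exons or splice forms were not analysed here.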

Additional observations from a re-analysis of the deposited data

How the results depend on the processing

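The log2 fold changes of all 9 tested members stayed negative in every alternative run, while the counts of calls moved. The methods' t-test is paired, and it was run here with arrays paired by replicate number, a pairing that the labels do not state. With it the 4 calls among the Kupffer genes became 0, and with its unpaired form 2 (2 and 3 at an unadjusted p under 0.05). They were 3 to 5 when single arrays were left out, with 5 without tumor 1. The 2 calls among the general genes became 1 with quantile normalization, 3 with a trend in eBayes, and 0 with spike-in scaling (2 unadjusted), without a filter on dim probes (4 unadjusted), with the methods' t-test (0 unadjusted) and with its unpaired form (2 unadjusted). They were 0 to 4 when single arrays were left out, from 0 without tumor 2 to 4 without tumor 1. Over all probes 8239 calls became 5381 with spike-in scaling, 4674 without a filter, 5261 with the unpaired form, 0 with the methods' t-test (7419 unadjusted) and 4965 to 7115 when single arrays were left out, with 4965 without normal liver 2. The 37 calls in the other lists became 24, 22, 22 and 0 (29 unadjusted) in the same order, and 25 to 37 when single arrays were left out. Without a filter more probes were tested; the other causes were not tested.

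With the replicate number as a block, 4 Kupffer genes, 2 general genes, 32 genes of the other lists and 7021 probes were called, and the 8 falls among other genes shared by macrophages became 3. Deviations of same-numbered arrays correlated at 0.066, 0.182 and 0.055, so the numbers were not taken to pair the samples. The Kupffer minus general difference was -0.70 to -0.48 when single arrays were left out and -0.45 with normexp background correction. The difference without Marco was chosen after seeing the data. Clec4f minus Adgre1 ranged from -1.26 without tumor 3 to -0.05 without tumor 1. The log2 fold change of Spic, which did not pass, turned to 0.054 with spike-in scaling and ranged from -0.63 without tumor 1 to 0.12 without tumor 2 when single arrays were left out, with 0.10 without normal liver 3 and 0.05 without tumor 3.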

Other observations

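Of 7 T and B lymphocyte markers 3 had a tested probe. Cd4 rose by 1.59 on the log2 scale on its brighter probe (limma's adjusted p = 0.00320), while its other probe fell by 0.48 (adjusted p = 0.0383), so its direction is uncertain. Cd3e had a log2 fold change of 0.03 (adjusted p = 0.904). Cd79a, of B cells, had one of 0.80 and did not pass (adjusted p = 0.0565).

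None of the 4 tested neutrophil markers passed the adjusted threshold of limma. S100a8 and S100a9, calcium-binding proteins of granulocytes, read 3.37 and 12.9 in tumor 1, and at most 1.01 and 4.51 on the other arrays. Tumor 1 was also the tumor with the highest value of 8 of the 9 tested members. Of the 4 red blood cell genes Alas2, the heme synthesis enzyme of erythroid cells, fell by 2.31 on the log2 scale (adjusted p = 0.0147), a call that was lost without normal liver 2, and the 3 globin genes had log2 fold changes from -0.08 to 0.05.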
